A study of Mus musculus with 12 samples.

Results

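The transcription factor p53 is held at a low level in unstressed cells by the ubiquitin ligase Mdm2, and upon DNA damage or other stress it accumulates, binds a palindromic DNA element in its target genes and switches them on. Its targets arrest the cell cycle, repair damage, kill the cell or feed back on p53 itself. In the early mouse embryo and in pluripotent cells, p53 is abundantly transcribed and its target genes take part in removing unfit cells. The 10 p53 targets described here are *Cdkn1a*, *Mdm2*, *Ccng1*, *Trp53inp1*, *Bbc3*, *Bax*, *Sesn1*, *Phlda3*, *Eda2r* and *Zmat3*. They were taken by symbol and Ensembl identifier from a table of 55141 genes, and all 10 passed the filter on low counts in every comparison.

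Gastruloids are aggregates of mouse embryonic stem cells, here of 129/SVEV background, that receive a pulse of the Wnt agonist CHIR99021 and then elongate along an anteroposterior axis. All libraries are bulk poly-A RNA-seq of pooled gastruloids collected at 120 h after seeding, which shared the pulse and were enclosed in a bioinert dextran hydrogel. There were 4 groups of 3 biological replicates, namely Emb_1.0mM_at_72h, Emb_1.0mM_at_96h, Emb_1.5mM_at_72h and Emb_1.5mM_at_96h, named by the gel concentration (1.0 or 1.5 mM, the latter being the stiffer gel) and the time of embedding (72 or 96 h). Gastruloids embedded at 72 h entered the gel at the end of the pulse and spent a longer time in it, so the time of entry and the time spent in the gel cannot be told apart. The comparisons ask whether p53 target transcripts at 120 h differed with the time of embedding and with the gel. In bulk RNA, a change in the number of cells that express a gene cannot be told apart from a change per cell.

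The libraries held 23011791 to 27609422 counts in total, of which the members received between 384 counts (*Sesn1*) and 8009 counts (*Ccng1*) in a library. Of the 6 posterior and neuromesodermal tissue markers, *T* was detected at 227 ± 37.3 and 93.3 ± 24.4 CPM (counts scaled to the library total; SD, n = 6) after embedding at 72 and 96 h, whereas *Wnt3a* and *Nkx1-2* averaged under 1 CPM over all libraries. An rRNA gene, CT010467.1, took from 0.207 to 6.12% of the counts of a library, with the highest share in replicate 1 of Emb_1.5mM_at_72h.

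To show the element that p53 reads, the promoter windows of the members (from 250 bases before to 50 after each annotated start; RefSeq, GRCm38.p6, the patch release of mm10) were searched for the p53 site. It consists of 2 adjacent half-sites of 10 bases, each made of purines, a C, A or T bases, a G and pyrimidines. The element is its own reverse complement in this notation, so that 1 search covers both strands. A window was found for 8 of the 10 members, all but *Trp53inp1* and *Zmat3*. A full site, with the C and G of both half-sites intact and at most 3 mismatches elsewhere, was present in windows of 4 of these 8 genes and in 1.38% of all 32851 windows. With at most 1 mismatch, it was found for *Cdkn1a* and *Ccng1* and in 0.067% of all windows. The 4 matches are printed with 20 flanking bases on each side on the strand of the gene, and the capitals mark the site.
*Cdkn1a*: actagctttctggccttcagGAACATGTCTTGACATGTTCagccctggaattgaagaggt
*Ccng1*: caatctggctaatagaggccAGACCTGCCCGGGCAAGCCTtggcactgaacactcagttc
*Bbc3*: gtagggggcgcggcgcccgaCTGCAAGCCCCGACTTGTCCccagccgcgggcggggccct
*Sesn1*: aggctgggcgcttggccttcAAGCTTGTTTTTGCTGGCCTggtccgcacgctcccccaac

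The printed *Cdkn1a* sequence lies at chr17:29090908-29090967 on the + strand, with its site from -51 to -32 relative to the start, upstream of all annotated transcripts. That of *Ccng1* lies at chr11:40755442-40755501 on the - strand, with the site from -195 to -176, also upstream of all transcripts. Those of *Bbc3* (chr7:16309466-16309525, + strand, site from -97 to -78) and *Sesn1* (chr10:41887246-41887305, + strand, site from -173 to -154) precede internal starts, lie in an intron of a longer transcript and hold 3 mismatches each. No full match was found in the windows of *Mdm2*, *Bax*, *Phlda3* and *Eda2r*. These matches are a description of the letters in these windows and were not read as binding.

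The members spanned a wide range of levels. In length-normalized units over all 12 libraries, *Bax* was the highest at 138 ± 13.4 FPKM (SD, n = 12), followed by *Ccng1* at 54.5 ± 11.3, *Mdm2* at 26.9 ± 1.79, *Cdkn1a* at 23.05 ± 5.67, *Phlda3* at 21.6 ± 4.52, *Trp53inp1* at 18.7 ± 5.21, *Bbc3* at 15.8 ± 1.90, *Zmat3* at 12.5 ± 2.27, *Eda2r* at 5.50 ± 2.02 and *Sesn1* at 5.39 ± 0.639 FPKM. The ranges of the top 3 did not overlap, whereas each neighbouring pair from *Mdm2* downwards overlapped. *Mdm2* varied least relative to its level, and *Eda2r* most.

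Embedding at 72 h was accompanied by moderately higher levels of a subset of the p53 targets. Over both gels, 5 of the 10 members were higher after embedding at 72 h than at 96 h, namely *Trp53inp1*, *Eda2r*, *Zmat3*, *Ccng1* and *Phlda3*, and no member was lower. Over all 16388 genes tested in this fit, 31.1% were called at an adjusted p below 0.05 in either direction, 16.2% as higher and 14.8% as lower. No member reached a log2 fold change of 1 in either direction in any comparison, whereas 4.66% of all genes passed both thresholds over both gels, 4.3% in 1.0 mM gels, 3.18% in 1.5 mM gels and 0.0061% between gels over both times. The median log2 fold change of the members was 0.36, against -0.01 over all genes. The members were chosen with earlier results of these data known, so the shares and medians are a description and not a test of the list. *Mdm2*, *Bbc3*, *Bax* and *Sesn1* lay between -0.05 and 0.14 and did not pass the test, and *Cdkn1a* was just above its threshold.

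**Figure D1:**
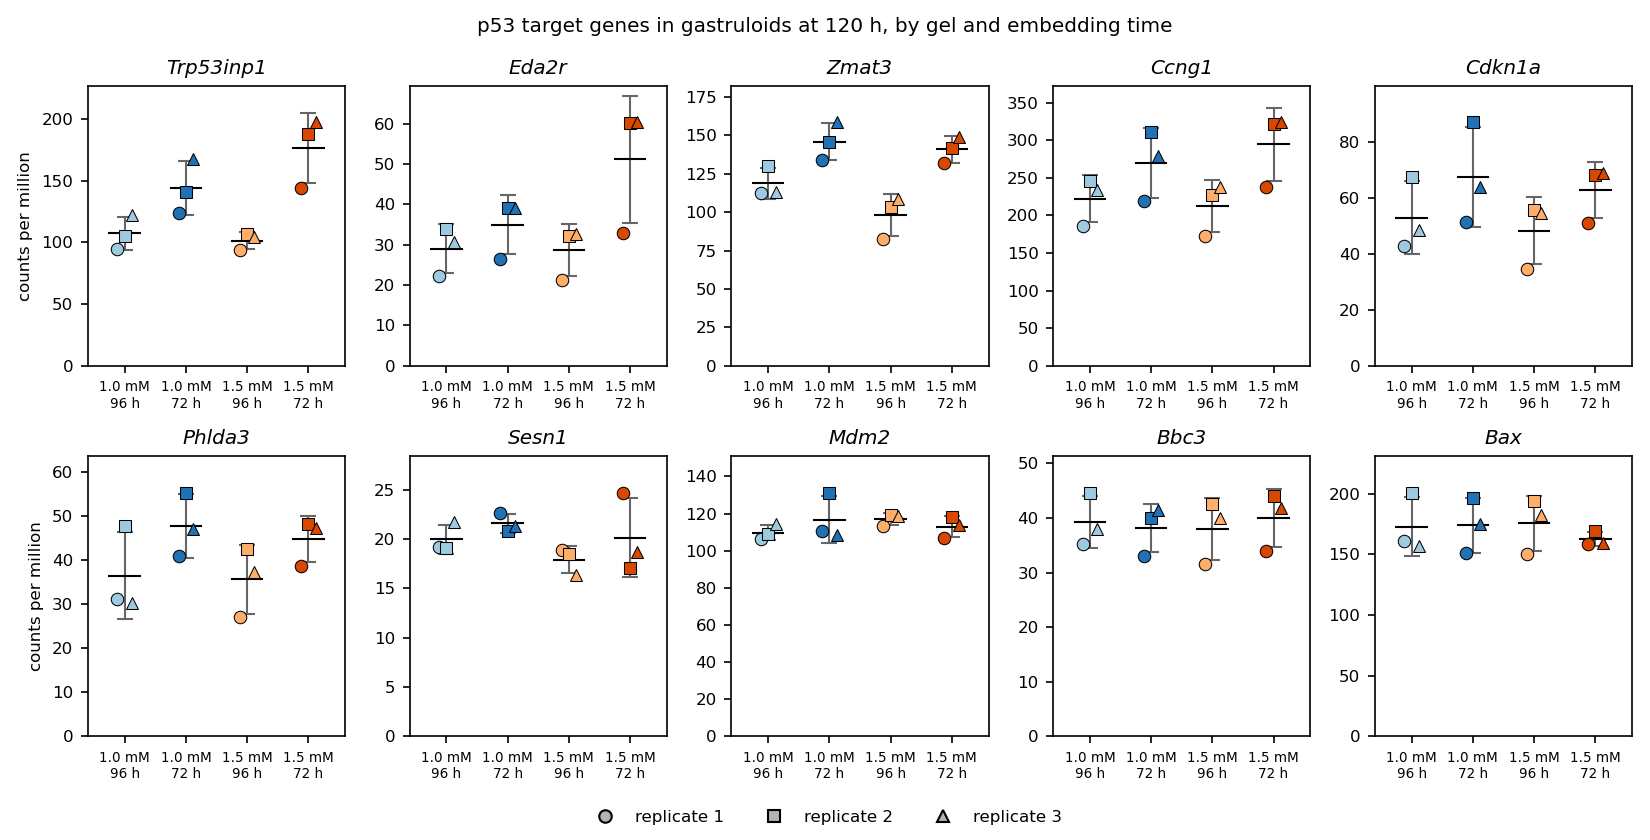
Library-scaled counts (CPM) of each p53 target (vertical axis, from 0) in the 4 groups of gel and embedding time (horizontal axis), with 1 symbol per library, the shape giving the replicate number, and bars giving the mean and SD of 3 replicates. *Trp53inp1* and *Zmat3* embedded at 72 h lay above every library embedded at 96 h, whereas the libraries of *Mdm2*, *Bbc3* and *Bax* overlapped between embedding times.

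*Trp53inp1* (chr4:11156431-11174379), which encodes a stress-induced nuclear protein that cooperates with p53 and takes part in autophagy, showed the largest change over both gels. In 1.0 mM gels its level was 124, 141 and 167 CPM in replicates 1 to 3 embedded at 72 h and 94.8, 105 and 122 CPM at 96 h. The corresponding levels in 1.5 mM gels were 144, 187 and 197 CPM at 72 h and 93.7, 106 and 104 CPM at 96 h. All 6 libraries embedded at 72 h were above all 6 embedded at 96 h, as were those of 6.74% of all genes. The margin was small, between 124 CPM at 72 h and 122 CPM at 96 h, both in 1.0 mM gels. The log2 fold change was 0.42 ± 0.12 (SE) in 1.0 mM gels (adjusted p = 0.0489), 0.79 ± 0.11 in 1.5 mM gels (adjusted p = 0.00315) and 0.61 ± 0.10 over both, a 1.52-fold difference (adjusted p = 4.37e-04).

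*Zmat3* (chr3:32334792-32365678), an RNA-binding zinc finger protein that acts on the splicing and stability of transcripts, followed the same order. Its 3 libraries embedded in 1.0 mM gels at 72 h held 134, 145 and 158 CPM, against 113, 130 and 113 CPM at 96 h. Those in 1.5 mM gels held 132, 142 and 149 CPM, against 82.6, 103 and 109 CPM. The groups were separate in both gels and over all 12 libraries, although the lowest library at 72 h was close to the highest at 96 h. The change was 0.52 ± 0.10 in 1.5 mM gels (adjusted p = 0.00830) and 0.41 ± 0.07 over both gels (adjusted p = 8.09e-04), and that in 1.0 mM gels, 0.29 ± 0.09, did not pass the test (adjusted p = 0.0642).

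*Ccng1* (chr11:40748552-40755311) encodes cyclin G1, an atypical cyclin that recruits phosphatase 2A and acts on Mdm2. Its levels were 219, 311 and 280 CPM at 72 h and 186, 246 and 234 CPM at 96 h in 1.0 mM gels, where the groups overlapped. In 1.5 mM gels they were 238.3, 322 and 324 CPM at 72 h and 173, 227 and 237.8 CPM at 96 h, so that the groups were separate by the smallest of margins between replicate 1 at 72 h and replicate 3 at 96 h. The change was 0.28 ± 0.13 in 1.0 mM gels (adjusted p = 0.246), 0.47 ± 0.14 in 1.5 mM gels (adjusted p = 0.0414) and 0.37 ± 0.11 over both (adjusted p = 0.0167).

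*Eda2r* (chrX:97333840-97377216) encodes a receptor of the TNF receptor superfamily that binds the ligand ectodysplasin A2. It had the largest change among the members in 1.5 mM gels, with 33.0, 60.2 and 60.3 CPM at 72 h against 21.4, 32.2 and 32.6 CPM at 96 h. In 1.0 mM gels the levels overlapped, with 26.5, 39.0 and 39.3 CPM at 72 h against 22.2, 34.0 and 30.8 CPM at 96 h. The groups in 1.5 mM gels were separate only because replicate 1 at 72 h stood slightly above the highest library at 96 h. The change was 0.83 ± 0.23 in 1.5 mM gels (adjusted p = 0.0333), 0.27 ± 0.18 in 1.0 mM gels (adjusted p = 0.407) and 0.55 ± 0.18 over both (adjusted p = 0.0269). Its ligand gene *Eda* was at 10.5 ± 0.928 and 9.21 ± 1.46 CPM (SD, n = 6) at 72 and 96 h and did not pass the test (adjusted p = 0.183), the related receptor *Edar* was under 1 CPM, and the adaptor *Traf6* was slightly higher at 72 h (0.20 ± 0.06, adjusted p = 0.0250).

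*Phlda3* (chr1:135766119-135769136), a lipid-binding protein that competes with the survival kinase Akt at the membrane, was called over both gels alone. Embedded in 1.0 mM gels at 72 h it gave 41.0, 55.3 and 47.1 CPM, against 31.1, 47.9 and 30.4 CPM at 96 h. The 1.5 mM gels gave 38.7, 48.2 and 47.4 CPM at 72 h and 27.1, 42.5 and 37.4 CPM at 96 h. The groups overlapped in both gels, through the high replicate 2 at 96 h. The change was 0.36 ± 0.12 over both gels (adjusted p = 0.0393), and in the single gels it was 0.39 ± 0.17 (adjusted p = 0.197) and 0.33 ± 0.15 (adjusted p = 0.149).

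*Cdkn1a* (chr17:29090979-29100727) encodes p21, the inhibitor of cyclin-dependent kinases through which p53 arrests the cell cycle. Its levels were 51.5, 86.8 and 63.8 CPM at 72 h and 42.8, 67.4 and 48.5 CPM at 96 h in 1.0 mM gels, and 51.1, 68.1 and 68.9 CPM at 72 h and 34.5, 55.7 and 54.6 CPM at 96 h in 1.5 mM gels. Its change over both gels was close to those of *Ccng1* and *Phlda3*, but its SE was larger (0.15 against 0.11 and 0.12). The groups overlapped in both gels, as did those of *Phlda3*. The change was 0.35 ± 0.19 in 1.0 mM gels (adjusted p = 0.315), 0.38 ± 0.17 in 1.5 mM gels (adjusted p = 0.155) and 0.36 ± 0.15 over both (adjusted p = 0.0698). None of these passed the test in this fit, which held no term for the replicate number. A fit with such a term is given at the end.

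The remaining 4 members had the smallest differences between embedding times. *Mdm2* (chr10:117688875-117710758), the ligase that degrades p53 and the best known feedback target, ranged from 106 to 131 CPM over all libraries, with a log2 fold change of 0.02 ± 0.05 over both gels (adjusted p = 0.841). *Bax* (chr7:45461697-45466898), which permeabilizes the outer mitochondrial membrane, ranged from 151 to 201 CPM and changed by -0.05 ± 0.08 (adjusted p = 0.643). *Bbc3* (chr7:16308393-16318205), which encodes the BH3-only protein Puma, ranged from 31.6 to 44.6 CPM and changed by 0.01 ± 0.09 (adjusted p = 0.923). *Sesn1* (chr10:41809935-41908424), a sestrin that restrains mTORC1 when amino acids are scarce, ranged from 16.3 to 24.6 CPM and changed by 0.14 ± 0.09 (adjusted p = 0.247). Their levels at 72 and 96 h overlapped. In the annotation, *Bax* shares 915 bp with the protein-coding gene Gm45808 and *Sesn1* 2584 bp with 9930024M15Rik on the same strand, and *Cdkn1a* shares 1046 bp with AC167363.2 on the opposite strand, so that reads there may have been counted for either gene or for none.

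Within single gels the counts were smaller. In 1.0 mM gels, 1 of 10 members was called (*Trp53inp1*), where 9.24% of 15763 genes were called, 5.97% as higher and 3.27% as lower. For 1.5 mM gels, 4 of 10 were called (*Trp53inp1*, *Zmat3*, *Ccng1* and *Eda2r*), all higher, where 19.3% of 15683 genes were called, 10.4% as higher and 8.98% as lower. Groups that did not overlap, with all 3 libraries at 72 h above all 3 at 96 h, were found for 2 members in 1.0 mM gels (15.3% of all genes) and for 4 in 1.5 mM gels (19.8%). Over all 12 libraries they were found for 2 members, against 6.74% of all genes. The members' medians were 0.27 and 0.35 in 1.0 and 1.5 mM gels, against -0.01 over all genes in each.

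**Figure D2:**
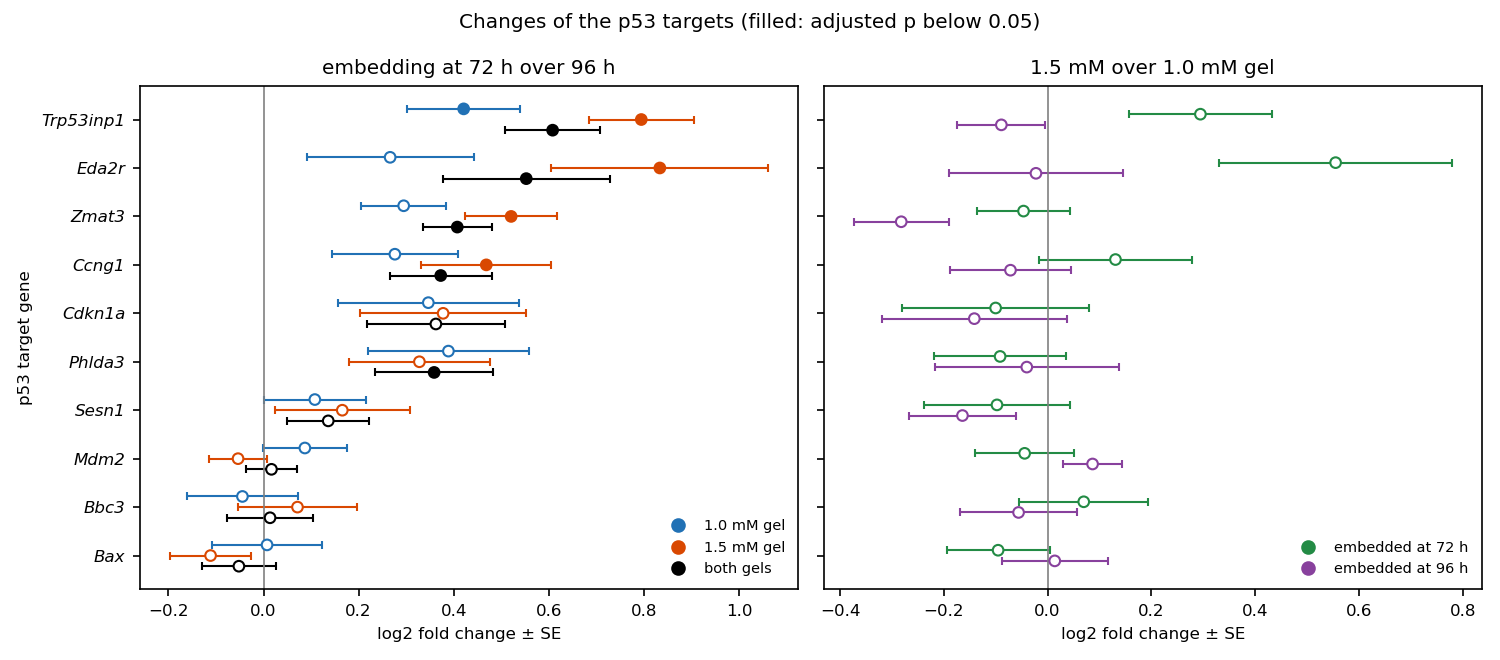
Log2 fold change (horizontal axes, with SE bars) of each p53 target (vertical axis) for embedding at 72 h over 96 h in each gel and over both (left), and for 1.5 mM over 1.0 mM gels at each embedding time (right); filled points have an adjusted p below 0.05. The 6 upper genes lie between 0.27 and 0.83 for the time of embedding, and no point of the gel comparisons is filled.

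Several of these calls were lost when any 1 of several libraries was left out. Each such fit had fewer libraries, and its share of all genes called is not given here. Over both gels, *Trp53inp1* and *Zmat3* were called under all 23 alternatives, with adjusted p-values of at most 0.0118 and 0.0141. *Phlda3* was not called without replicate 2 or 3 of Emb_1.0mM_at_72h (adjusted p = 0.0827 and 0.0595), replicate 1 or 3 of Emb_1.0mM_at_96h (0.0887 and 0.0840), replicate 2 or 3 of Emb_1.5mM_at_72h (0.0725 and 0.0692) or replicate 1 or 3 of Emb_1.5mM_at_96h (0.0810 and 0.0581). *Eda2r* over both gels was not called without replicate 1 of Emb_1.0mM_at_96h (0.0566), replicate 2 or 3 of Emb_1.5mM_at_72h (0.0596 and 0.0603) or replicate 1 or 3 of Emb_1.5mM_at_96h (0.0593 and 0.0517). *Cdkn1a* over both gels was called without replicate 1 of Emb_1.0mM_at_72h (0.0320) or replicate 2 of Emb_1.0mM_at_96h (0.0317).

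In 1.5 mM gels alone, *Ccng1* and *Eda2r* kept their calls only when replicate 1 of Emb_1.5mM_at_72h was the library left out. Without replicates 2 and 3 at 72 h and replicates 1, 2 and 3 at 96 h, the adjusted p of *Ccng1* was 0.121, 0.130, 0.110, 0.0821 and 0.0668, and that of *Eda2r* was 0.0994, 0.110, 0.0979, 0.0697 and 0.0713. *Cdkn1a* was called there without replicate 1 at 72 h (0.0381). In 1.0 mM gels alone, the call of *Trp53inp1* was lost without replicate 2 or 3 at 72 h (0.0647 and 0.149) or replicate 1 or 2 at 96 h (0.186 and 0.145). *Zmat3* was called there without replicate 1 at 72 h (0.0366), and *Phlda3* without replicate 2 at 96 h (0.0236).

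With the edgeR fit used here, no member was called between the gel concentrations. This fit held no term for the replicate number, and a fit with such a term is given at the end. At 72 h, 0 of 10 members and 0% of 15563 genes were called with edgeR, and 1 member, *Eda2r*, was under an unadjusted p of 0.05. Its log2 fold change of 1.5 mM over 1.0 mM was 0.56 ± 0.22 (adjusted p = 0.703). At 96 h, 0 of 10 members and 0% of 15861 genes were called, and 1 member was under an unadjusted p of 0.05, *Zmat3*, at -0.28 ± 0.09 (adjusted p = 0.348). Over both times, 0 members were called and 1 (*Zmat3*) was under an unadjusted p of 0.05, and 0.0305% of 16388 genes were called, 0.0122% as higher and 0.0183% as lower. DESeq2 and limma-voom also called 0 members in these 3 comparisons, and their shares of all genes called are not given here. Without the filter on low counts, 1 member was called in each, *Eda2r* at 72 h (adjusted p = 2.03e-04) and over both times (adjusted p = 0.0241) and *Zmat3* at 96 h (adjusted p = 0.0140), where 1.13%, 1.63% and 1.14% of all genes were called. The members' medians were -0.05 at 72 h and -0.06 at 96 h, and *Trp53inp1* at 72 h was at 0.29 ± 0.14 (adjusted p = 0.704). The other members lay between -0.10 and 0.13 at 72 h, and at 96 h all but *Zmat3* lay between -0.16 and 0.09. For no member were the libraries in 1.5 mM gels all above those in 1.0 mM gels, as they were for 5.82% of all genes at 72 h, 7.75% at 96 h and 0.238% over both times. At 96 h, *Zmat3* and *Sesn1* were lower in all 3 libraries of 1.5 mM gels than in all 3 of 1.0 mM gels, as were 7.35% of all genes.

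Whether the effect of the time of embedding differed between the gels was tested with an interaction term. For *Trp53inp1* the change in 1.5 mM gels exceeded that in 1.0 mM gels by 0.38 ± 0.18 on the log2 scale, for *Eda2r* by 0.58 ± 0.33, for *Zmat3* by 0.24 ± 0.14 and for *Ccng1* by 0.20 ± 0.21 (adjusted p = 0.953 for each). No member and 0% of all genes were called with edgeR. DESeq2 also called 0 members, and its share of all genes called is not given here. Without the filter on low counts *Eda2r* was called (0.56, adjusted p = 0.0286), where 0.758% of all genes were called, and in the filtered fit 1 member, *Trp53inp1*, was under an unadjusted p of 0.05. The higher number of members called in 1.5 mM gels was therefore not shown to be a difference between the gels in the filtered fit.

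The spread between replicates was shared among the members. Replicate 1 had the lowest level in all 4 groups for 6 of the 10 members (*Cdkn1a*, *Ccng1*, *Trp53inp1*, *Bbc3*, *Eda2r* and *Zmat3*), as for 5.06% of all genes, and in at least 3 groups for 9 of 10, as for 19% of all genes. The mean difference of replicate 1 from replicates 2 and 3 was -0.64 for *Eda2r*, -0.51 for *Cdkn1a*, -0.41 for *Ccng1* and -0.36 for *Phlda3* on the log2 scale. For the first 3 of these it was larger in size than their change with embedding time over both gels. For *Phlda3* it was about equal in size to that change (0.36). Within 1.5 mM gels the change with embedding time was the larger for *Eda2r* (0.83) and *Ccng1* (0.47). *Bbc3*, with the smallest change between embedding times over both gels, was lower in replicate 1 by a mean difference of -0.30. *Sesn1* went the other way (0.16). The median difference was -0.29 over the members and 0.00 over all genes. The summed level of 9 immediate-early and heat shock genes reached 274 to 607 CPM in replicate 1 and 240 to 360 CPM in replicates 2 and 3, and the ranges overlapped. These genes also differed with the gel. Over both times, all 8 that were tested were lower in 1.5 mM than in 1.0 mM gels, and 1 was called, *Egr1* (-2.18 ± 0.32, adjusted p = 0.0257). The labels do not say whether a replicate number marks a shared batch or day, so the part of such a batch was not tested as such. The fit with a term for the replicate number, given at the end, does not say what the number marks.

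**Figure D3:**
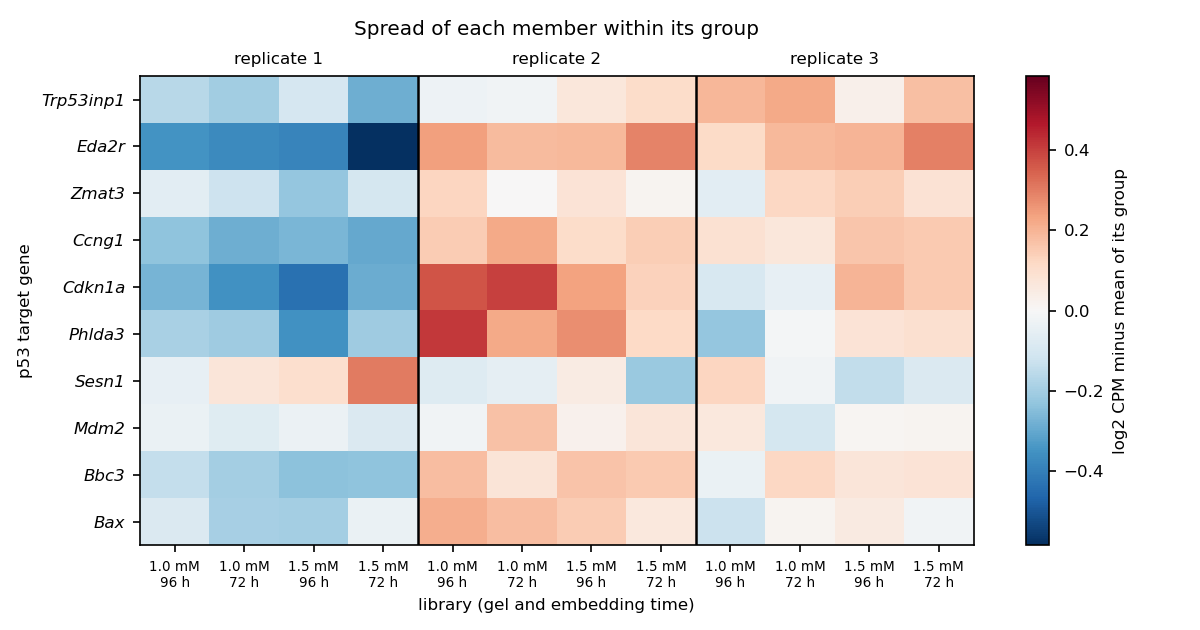
Difference of each p53 target's log2 CPM from the mean of its group (colour, red above and blue below) in the 12 libraries, ordered by replicate number (horizontal axis: gel and embedding time; vertical axis: gene). Replicate 1 is blue for every member but *Sesn1*, with differences from replicates 2 and 3 that average from -0.64 to -0.09 per gene.

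Deviations from the group means rose and fell together across the libraries. Among the 36 pairs of members without *Sesn1*, all 36 correlations over the 12 libraries were positive, with a median r of 0.78, and the highest was between *Ccng1* and *Eda2r* (r = 0.97), 2 genes on different chromosomes. All 9 correlations with *Sesn1* were negative, down to -0.71 with *Eda2r*. These correlations are a description over 12 libraries of 4 groups, and libraries share normalization, depth and handling. Leaving out replicate 1 of every group, a choice made after the pattern was seen, gave 4 members called over both gels and 0 in 1.0 mM gels, where 18.3% and 4.87% of all genes were called. It gave 7 in 1.5 mM gels, of which *Bax* was lower at 72 h (-0.19 ± 0.06, adjusted p = 0.0287) and the other 6 higher, where 30.3% of all genes were called. The change of *Eda2r* in 1.5 mM gels was then 0.90 ± 0.07 and that of *Trp53inp1* was 0.87 ± 0.05. Between gels at 72 h, *Eda2r* was then called (0.63 ± 0.08, adjusted p = 0.0223), where 1.8% of all genes were called. Replicate 1 was the lowest library of *Eda2r* in every group, so leaving it out narrowed the spread (SE of 0.22 with it). This call is therefore not a separate test of a difference between the gels.

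The other p53 targets were called in both directions. Of 37 listed genes, 34 were tested, and over both gels 9 rose and 5 fell in gastruloids embedded at 72 h relative to 96 h, with a median of 0.11. Over all genes, 16.2% were called as higher and 14.8% as lower in this comparison, and the counts for this and the following lists stand against these shares. *Ak1*, an adenylate kinase, averaged 80.6 ± 7.98 and 58.1 ± 4.399 CPM (72 and 96 h; SD, n = 6; adjusted p = 1.03e-04). *Apaf1*, the scaffold of the apoptosome, was at 73.8 ± 3.19 and 57.0 ± 4.68 CPM (adjusted p = 2.22e-04), and the death receptor gene *Tnfrsf10b* was at 44.1 ± 3.27 and 34.4 ± 1.32 CPM (adjusted p = 4.05e-04). The antiproliferative gene *Btg2* (0.37 ± 0.08), the adhesion gene *Perp* (0.49 ± 0.13) and *Pmaip1*, which encodes the BH3-only protein Noxa (0.69 ± 0.18), were also higher. *Gadd45a*, a sensor of DNA damage (-0.34 ± 0.08), and *Plk2*, a polo-like kinase (-0.35 ± 0.09), were lower. In 1.0 mM gels, 3 were higher and 1 lower, where 5.97% and 3.27% of all genes were. In 1.5 mM gels, 6 were higher and 0 lower, where 10.4% and 8.98% of all genes were. The summed level of all 37 genes overlapped between 72 h (1355 to 1580 CPM) and 96 h (1283 to 1494 CPM), but was lower in the 4 libraries of replicate 1 (1283 to 1371 CPM) than in the other 8 (1436 to 1580 CPM).

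**Figure D4:**
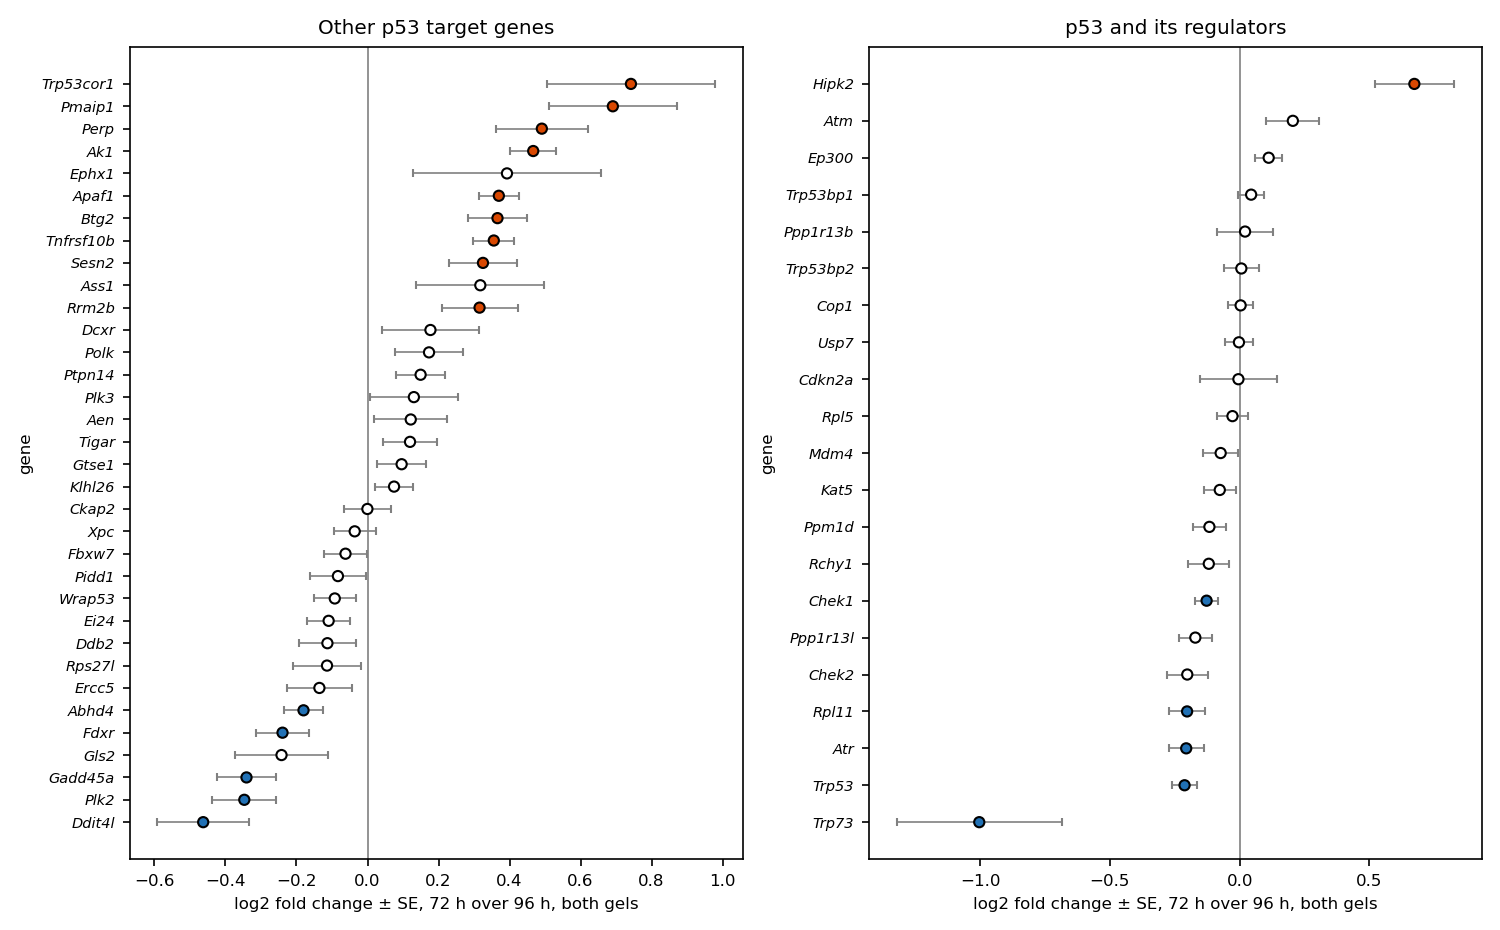
Log2 fold change of 72 h over 96 h across both gels (horizontal axes, with SE bars) for the 34 other p53 targets tested (left) and for 21 genes of p53 and its regulators (right); filled points have an adjusted p below 0.05, orange higher and blue lower after embedding at 72 h. Targets were called in both directions, 9 higher and 5 lower, whereas *Trp53* itself lies at -0.21.

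The transcript of p53 itself moved the other way. *Trp53* averaged 293 ± 16.1 and 338 ± 16.4 CPM after embedding at 72 and 96 h (SD, n = 6), a log2 fold change of -0.21 ± 0.05 (adjusted p = 0.00414). *Mdm4*, the partner of Mdm2 in restraining p53, was at 186 ± 17.1 and 196 ± 15.0 CPM and did not pass the test (adjusted p = 0.429). Of the 21 genes of p53 and its regulators that were tested, 1 was higher at 72 h, the p53 kinase *Hipk2* (0.67 ± 0.15, adjusted p = 0.00419). The damage kinases *Atr* (-0.21 ± 0.07) and *Chek1* (-0.13 ± 0.04), the ribosomal protein gene *Rpl11* (-0.20 ± 0.07) and *Trp73*, which encodes the p53 relative p73 and averaged under 1 CPM (-1.004 ± 0.32), were lower together with *Trp53*, making 5. p53 is controlled mainly through its stability, which RNA-seq does not measure.

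Relatives of the members were also called. Of 14 paralogues tested, 5 were higher and 1 lower at 72 h. Among the kinase inhibitors related to *Cdkn1a*, *Cdkn1b* was at 128 ± 10.0 and 99.1 ± 8.22 CPM (adjusted p = 3.43e-04) and *Cdkn1c* at 24.7 ± 5.65 and 16.2 ± 3.11 CPM (adjusted p = 0.0105). *Trp53inp2*, the autophagy-related relative of *Trp53inp1* (log2 fold change of 0.59 ± 0.11), *Phlda2*, an imprinted relative of *Phlda3* (1.07 ± 0.26), and the sestrin gene *Sesn2* (0.33 ± 0.10) were also higher. *Ccng2*, the relative of *Ccng1*, was lower (-0.16 ± 0.06, adjusted p = 0.0497). In the Bcl2 family, 3 of 13 were higher, the survival genes *Bcl2l1* (0.29 ± 0.05) and *Bcl2l2* (0.27 ± 0.07) and the death gene *Pmaip1*, and *Bmf*, a BH3-only gene, was lower (-0.47 ± 0.15).

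For cell cycle genes that act beside *Cdkn1a*, the counts likewise stand against 16.2% higher and 14.8% lower over all genes. Of 16 genes of the G1 to S transition, 4 were higher at 72 h, among them *Ccnd2*, a D-type cyclin (0.47 ± 0.11), and *Cdk6*, its partner kinase (0.58 ± 0.11), and 3 were lower, among them *E2f1* (-0.22 ± 0.05). Of 15 mitotic genes, 0 were higher and 2 were lower, *Aurkb* (-0.13 ± 0.04) and *Cenpa* (-0.16 ± 0.05). The summed level of the mitotic genes overlapped between the embedding times (2621 to 2906 CPM at 72 h and 2669 to 2878 CPM at 96 h).

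Other groups of genes moved with the time of embedding beside the members, and their part in the members' changes was not tested. Of 9 genes of the integrated stress response, 3 were higher at 72 h (*Asns* at 0.53 ± 0.11, *Ddit4* at 0.44 ± 0.15 and *Sesn2*) and 2 were lower (*Atf3* at -0.62 ± 0.17 and *Ddit3* at -0.45 ± 0.13). Of 8 immediate-early and heat shock genes tested, 0 were higher and 2 lower, and their summed level overlapped (240 to 562 CPM at 72 h and 273 to 607 CPM at 96 h). Cardiac and anterior mesoderm markers were called as higher for 4 of 6 genes, and their summed level was 335 to 742 CPM at 72 h against 56.9 to 303 CPM at 96 h. Presomitic and somitic markers were lower for 5 of 6 genes tested (235 to 439 against 589 to 848 CPM), and pluripotency markers were lower for 5 of 6 genes (31.1 to 45.9 against 79.9 to 137 CPM) and higher for *Tdgf1*. None of the cardiac, presomitic and pluripotency markers was at 0 in all libraries. The presomitic marker *Msgn1*, however, averaged only 0.041 and 0.026 CPM at 72 and 96 h and was not tested. Of 5 genes each, neural tube markers had 2 higher and 2 lower, endoderm markers 1 higher and 1 lower, and endothelial markers 2 higher and 1 lower. Among the posterior and neuromesodermal markers, 1 of 5 tested was higher (*T*, 1.298 ± 0.10) and 2 were lower (*Sox2*, -0.50 ± 0.09, and *Nkx1-2*, -1.69 ± 0.33), with a median of -0.30. Both extraembryonic markers that were tested were higher at 72 h (*Ttr*, 2.01 ± 0.52, adjusted p = 0.00913, and *Sox7*, 0.70 ± 0.15, adjusted p = 0.00288), and *Afp* was at 0 in every library. The 4 markers of primitive blood averaged under 1 CPM, and *Gata1*, the 1 tested, was higher at 72 h (1.85 ± 0.38, adjusted p = 0.00219).

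The genes whose pattern was most like that of the members were found by Pearson correlation with the mean standardized log2 CPM of the 10 members over the 12 libraries. For levels these were *Atp6v0c-ps2* (r = 0.95), *Dars* (r = 0.94), *Tomm20* (r = 0.93), *Serpine2* (r = 0.92) and *Gskip* (r = 0.90). For deviations from the group means they were *Pmpcb* (r = 0.98), *Arih2* (r = 0.97), *Cacybp* (r = 0.97), *Cops5* (r = 0.96) and *Smu1* (r = 0.96), and no gene was on both lists.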

How the data were processed

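Per the labels, poly-A RNA of pooled gastruloids was sequenced from stranded libraries. The authors' processing notes name cutadapt 4.4, STAR 2.7.10b, Cufflinks 2.2.1.3, DESeq2 and mm10. The authors deposited raw counts per gene (55141 genes, 12 libraries) and FPKM values from Cufflinks; the strand setting of the counting is not given in the sources used here. A deposited table of the authors' own comparisons (fold changes and adjusted p-values) was not used. Here, 36 mitochondrial genes were removed, counts were filtered with filterByExpr by group (minimum count 10, total 15), scaled by TMM and fitted with edgeR 4.0.16 (glmQLFit, glmQLFTest; R 4.3.3), with Benjamini-Hochberg adjustment over all tested genes and a threshold of 0.05. Log2 fold changes are 72 h over 96 h or 1.5 mM over 1.0 mM. Each pairwise comparison used its own 6 libraries, and those over both gels or times, with the other factor as a term, used all 12, as did the interaction. CPM use TMM-scaled totals, and log2 CPM a prior count of 2. Alternatives were DESeq2 1.42.0, limma 3.58.1 (voom, or on log2(FPKM + 1)), other scalings and filters, a block by replicate number, a threshold of 0.01, and fits without single libraries. Scripts were tested on simulated data. The members and lists were chosen with earlier results of these data known. All members are named; of other lists, those called over both gels, at most the 8 lowest adjusted p-values each, *Trp53* and *Mdm4*, and the 5 genes most like the members. P-values measure the spread between replicates, which the methods call biological.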

Additional observations from a re-analysis of the deposited data

How the results depend on the processing

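The number of members called differed between alternatives, also for members far from the threshold in the filtered edgeR fit. In 1.0 mM gels, the filtered edgeR fit called 1 member and 9.24% of all genes. Of the members, 2 were called with DESeq2, 5 without the filter on low counts, and 0 with limma-voom, upper quartile scaling, the stricter filter (1 CPM in 3 libraries), FPKM or a threshold of 0.01. In 1.5 mM gels (4 members and 19.3% of all genes called), 2 members were called with FPKM or a threshold of 0.01. Over both gels (5 members and 31.1% of all genes called), 3 members were called with FPKM and 2 at a threshold of 0.01. Without the filter on low counts, 1 member was called in each gel comparison and in the interaction. Leaving out single libraries gave 0 to 2 members in 1.0 mM gels, 2 to 5 in 1.5 mM gels and 3 to 6 over both gels. Leaving out replicate 1 of every group, chosen after seeing the data, gave 0 members in 1.0 mM gels, 7 in 1.5 mM gels and 1 between gels at 72 h. The number of members with replicate 1 lowest in every group was 5 on FPKM or without scaling factors and 6 with RLE scaling or mitochondrial genes kept, all chosen after seeing the data. Shares of all genes are given in this paragraph for the filtered edgeR fit alone. A change in the number of members was therefore not told apart from a change over all genes. The causes were not tested.

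Replicates with the same number share only a number by the labels. Correlations of their deviations between groups ran from 0.0439 to 0.302, all positive. They were not all above 0.1 in any comparison, so the numbers were not taken to pair the libraries. However, 5 or 6 of the 6 libraries in each comparison correlated best with the library of their own number. Libraries of the same number thus resembled each other, and the fits without a replicate term did not remove this shared spread. With a replicate block, 5 members were called in 1.0 mM gels (13.5% of all genes), 6 in 1.5 mM gels (24.8%), 6 over both gels (36.3%), among them *Cdkn1a* (adjusted p = 8.23e-04), and 1 between gels at 96 h (*Zmat3*, -0.29, adjusted p = 0.0308; 1.82% of all genes).

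The sign of 28 of 70 log2 fold changes of members turned under some alternative, and none of these was called before or after. On FPKM, *Bax* gave -0.023 in 1.0 mM gels and -0.057 (-0.058 with a pseudocount of 0.1) between gels at 96 h, *Bbc3* -0.0017 (-0.0019) over both gels, and over both times *Mdm2* gave -0.016 (-0.017), *Ccng1* -0.0073 (-0.0078) and *Bbc3* -0.030 (-0.032, and -0.0017 with upper quartile scaling). Without single libraries, values for the time of embedding ran in 1.0 mM gels from -0.0043 to 0.14 (*Mdm2*), -0.12 to 0.054 (*Bbc3*) and -0.087 to 0.13 (*Bax*), in 1.5 mM gels from -0.042 to 0.18 (*Bbc3*) and -0.0047 to 0.27 (*Sesn1*), and over both gels from -0.031 to 0.037 (*Mdm2*) and -0.043 to 0.063 (*Bbc3*). Between gels at 72 h they ran from -0.26 to 0.12 (*Cdkn1a*), -0.095 to 0.046 (*Mdm2*), -0.022 to 0.17 (*Bbc3*), -0.27 to 0.0079 (*Sesn1*), -0.19 to 0.026 (*Phlda3*) and -0.10 to 0.016 (*Zmat3*). At 96 h they ran from -0.27 to 0.067 (*Cdkn1a*), -0.18 to 0.066 (*Ccng1*), -0.17 to 0.012 (*Trp53inp1*), -0.14 to 0.070 (*Bbc3*), -0.062 to 0.13 (*Bax*), -0.18 to 0.20 (*Phlda3*) and -0.18 to 0.16 (*Eda2r*). Over both times they ran from -0.038 to 0.097 (*Ccng1*), -0.040 to 0.065 (*Bbc3*), -0.080 to 0.0051 (*Bax*) and -0.13 to 0.034 (*Phlda3*), and for the interaction from -0.17 to 0.26 (*Cdkn1a*), -0.12 to 0.17 (*Sesn1*) and -0.30 to 0.076 (*Phlda3*).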
